A study of Mus musculus with 8 samples.

Results

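Esrrb, Nr0b1, Nr5a2, Tfcp2l1, Prdm14 and Tbx3 are transcription factors of the naive pluripotent state, and their expression was followed in 3 mouse induced pluripotent stem (iPS) cell lines and 1 embryonic stem (ES) cell line. The 6 genes were chosen by name, as every probe set that the array's annotation gives to one of them alone. That yielded 17 of 45101 probe sets. Of these, 14 exceeded a signal of 37.1, the 40th percentile of all signals, in at least 2 arrays, and each of the 6 genes kept at least 1. The other 3 probe sets, 2 of Tfcp2l1 and 1 of Tbx3, stayed at or below 30.08 in every array and carry no result. The probe set with the highest mean stood for its gene in tests over 14004 genes.

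The series holds 8 Affymetrix arrays, with 2 for each of iPS line 1, iPS line 2, iPS line 3 and the ES control. Per the labels, all lines were male and of C57BL/6 background, and all were kept in N2B27 medium with mouse LIF, a cytokine that sustains naive ES cells. RNA was taken between passage 7 and 10. The iPS lines are described as integration-free, that is, reprogrammed without vectors left in the genome. The cells they were made from and the reprogramming factors are not stated in the labels. Each group is a single cell line, so a difference between lines is a difference between those lines. The titles name biological replicates, and no label says whether these were separate cultures, so the spread that p-values measure is that among these arrays and may be technical.

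Naive pluripotency is the state of the preimplantation epiblast, which mouse ES cells hold in culture. It rests on a circuit in which LIF, acting through Stat3, and Wnt signalling, acting through relief of the repressor Tcf7l1, keep a group of transcription factors on. Esrrb is an orphan nuclear receptor downstream of the Wnt branch, and Nr5a2 is another orphan receptor that can stand in for Pou5f1 in reprogramming of mouse cells. Nr0b1 is an atypical nuclear receptor without the usual DNA-binding domain that partners with Nr5a2, Esrrb and Pou5f1 and is itself a target of Nr5a2 and Esrrb. Tfcp2l1, a CP2-family factor, is a target of Stat3. Prdm14, a PR domain zinc finger protein, restrains FGF receptor signalling and the de novo DNA methyltransferases, and Tbx3 is a T-box factor that supports Nanog expression in response to LIF.

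RefSeq promoter sequence (build GRCm38.p6) was matched for 4 of the 6 genes, in 6 windows. It is shown for Nr0b1, the member with the widest differences between lines, and for Nr5a2, because these were the windows with the AGGTCA hexamer, the core recognised by orphan nuclear receptors of the Esrrb and Nr5a2 kind. Each run is the 250 bases before the annotated start, 5′ to 3′ on the gene's strand, and capitals mark AGGTCA and the TCF core CTTTGA.
Nr0b1, chrX:86191525-86191774, plus strand: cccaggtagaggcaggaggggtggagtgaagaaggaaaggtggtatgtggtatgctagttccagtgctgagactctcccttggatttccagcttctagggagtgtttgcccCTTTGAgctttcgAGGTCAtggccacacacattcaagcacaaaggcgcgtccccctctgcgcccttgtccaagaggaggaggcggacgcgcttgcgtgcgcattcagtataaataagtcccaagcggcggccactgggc
Nr5a2, chr1:136960449-136960698, minus strand: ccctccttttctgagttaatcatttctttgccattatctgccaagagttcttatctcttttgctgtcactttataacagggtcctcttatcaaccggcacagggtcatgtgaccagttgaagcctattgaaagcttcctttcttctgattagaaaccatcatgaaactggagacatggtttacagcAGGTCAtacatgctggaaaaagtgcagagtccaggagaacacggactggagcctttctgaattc

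In the Nr0b1 window the hexamer lies 126 to 121 bases before the start and the TCF core 139 to 134 bases before it. Both matches are on the gene's own strand and do not overlap. In the Nr5a2 window the hexamer lies 64 to 59 bases before the start. Searched on both strands, AGGTCA occurred in 14% of 32851 promoter windows of this length and CTTTGA in 13.8%. A match is a run of letters and was not tested as a binding site. The longer form TCAAGGNCA, found in 1.39% of all windows, had no match in the 6 windows of these genes.

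All 6 genes gave signals far above the floor of 37.1 in every array on the probe set used. Of 8 pluripotent markers, 0 were under the floor in all arrays. Their summed signal was 98006 to 104464 in iPS line 1, 106484 to 109276 in line 2, 102284 to 105796 in line 3 and 104034 to 111878 in ES cells. Dppa5a weighed heavily in these sums, with a mean of 39868 in line 2 and 35951 in ES cells. Of the 8, 2 fell and 0 rose in line 2, against 10.6% and 16.1% of all genes. Pou5f1 was among those that fell (-0.23 ± 0.06, limma adjusted p = 0.0153). In lines 1 and 3, 0 of the 8 were called, against 2.34% and 4.15% of all genes. The 9 fibroblast markers on the array summed to at most 285.4, and Col1a1, Postn and Dcn were under the floor throughout. Arrays had been set to a common level, and 58.1% to 61.4% of their probe sets lay above the floor. The 3′/5′ ratio of the beta-actin control rises where transcripts are shortened; it read 1.74 and 1.79 for iPS line 2, with a highest value of 1.62 among the remaining 6 arrays.

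**Figure D1:**
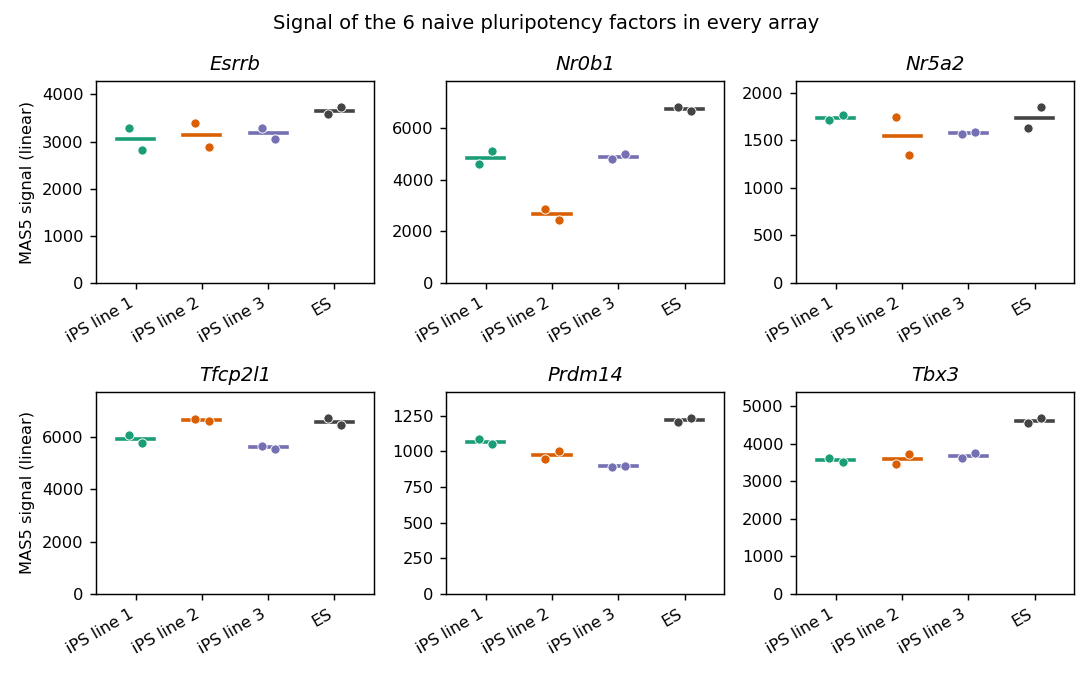
MAS5 signal (linear, vertical axis from 0) of the 6 genes in each of the 8 arrays, by line; points are arrays and bars are means of 2 arrays. Nr0b1 is lowest in iPS line 2, and for Esrrb, Nr0b1, Prdm14 and Tbx3 all 6 iPS arrays lie below both ES arrays.

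When the 3 iPS lines, each given the same weight, were averaged and set against ES cells, 3 of the 6 factors fell, 0 rose and 3 did not pass the test. Nr0b1 fell 1.69-fold (log2 difference -0.76 ± 0.07 SE, n = 6 iPS and 2 ES arrays, limma adjusted p = 2.33e-05). Tbx3 fell 1.28-fold (-0.35 ± 0.05, limma adjusted p = 0.0014), and Prdm14 fell 1.25-fold (-0.32 ± 0.07, limma adjusted p = 0.0117). Over all genes, 3.03% were called lower, 4.27% higher and 7.3% in either direction. At an unadjusted p under 0.05, 5 of the 6 were lower and 0 higher, against 8.92% and 12.6% of all genes. The median log2 difference of the 6 genes was -0.27, against 0.02 over all genes tested. For 4 of the 6 factors, no iPS array reached the lower of the ES arrays, and 5.75% of all genes showed that pattern.

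The 3 factors that did not pass in that mean were Esrrb (-0.23, 95% interval -0.39 to -0.07, adjusted p = 0.0842), Tfcp2l1 (-0.12, interval -0.22 to -0.02, adjusted p = 0.149) and Nr5a2 (-0.10, interval -0.29 to 0.09, adjusted p = 0.577). Intervals are for each gene on its own, whereas the adjusted p of limma counts all 14004 genes. Without iPS line 2 the mean of lines 1 and 3 gave -0.47 for Nr0b1 (limma adjusted p = 0.000963), -0.35 for Tbx3 (0.00379) and -0.32 for Prdm14 (0.0279), so these calls held without it. The calls of Prdm14 and Tbx3 were lost when limma was run without its intensity trend of the variance (adjusted p = 0.0705 and 0.067), and that of Prdm14 also without ES replicate 1 (0.107) or ES replicate 2 (0.128).

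**Figure D2:**
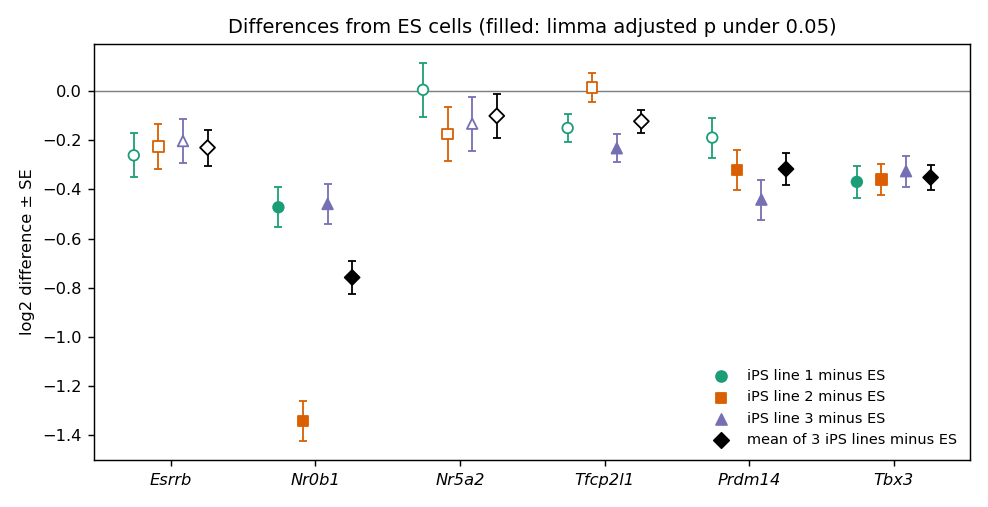
Log2 difference from ES cells (vertical axis) of the 6 genes in each iPS line and in the mean of the lines; bars are standard errors from limma, and filled symbols passed at an adjusted p under 0.05. Nr0b1 in iPS line 2 stands at -1.34, while Tbx3 lies between -0.37 and -0.33 in all 3 lines.

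Nr0b1, annotated to the X chromosome, had 4598 and 5127 signal units in iPS line 1, 2877 and 2442 in line 2, and 4811 and 4990 in line 3, against 6805 and 6677 in ES cells. The arrays of line 2 were below all others, those of ES cells above all others, and lines 1 and 3 overlapped between them. It fell 1.39-fold in line 1 (-0.47 ± 0.08, n = 2 arrays per line, limma adjusted p = 0.00812), 2.54-fold in line 2 (-1.34 ± 0.08, 3.26e-07) and 1.37-fold in line 3 (-0.46 ± 0.08, 0.00744). The steps from line 2 to line 1 and to line 3 also passed, as given in the comparison of iPS lines, while lines 1 and 3 differed by -0.01 (95% interval -0.19 to 0.16). The span of 1.34 log2 units between its highest and lowest line mean was wider than that of 93.2% of genes. A single probe set, 1417760_at, measured Nr0b1, so its values could not be compared with those of another.

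The fall of Nr0b1 in line 2 came with the raised beta-actin ratios of that line, 1.74 and 1.79, and their part in it was not tested. The 3′/5′ ratio of the Gapdh control did not set that line apart, at 0.915 and 0.946 in line 2, with 0.935 in the first array of line 3 and 0.856 and 0.888 in ES cells. The summed signal of 8 trophoblast markers was 3855 to 4433 in line 2, 2655 to 3104 in line 1 and 2308 to 2638 in line 3, against 2102 to 2140 in ES cells. All 8 were over the floor in at least 1 array, and of 7 tested, 2 rose and 1 fell in line 2, where 26.7% of all genes were called (16.1% higher and 10.6% lower). Krt7, a simple epithelial keratin, had 510.0 and 511.4 in line 2 and 125 and 136.5 in ES cells. Tfap2c, which naive and trophoblast cells both use, had 3056 and 3556 in line 2 against 1694 and 1532 in ES cells. These are the 2 that rose, and Tfap2c made up most of the summed signal both in line 2 and in ES cells. The sum therefore says little about the other markers of the list. The part of trophoblast-like cells was likewise not tested. In bulk RNA, fewer cells with a transcript and less transcript per cell cannot be told apart.

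Tbx3 had 3627 and 3505 signal units in iPS line 1, 3458 and 3730 in line 2, and 3610 and 3741 in line 3, against 4539 and 4680 in ES cells. The 3 iPS lines overlapped one another and none reached the ES arrays. The gene fell by 0.37 ± 0.06 in line 1 (limma adjusted p = 0.00859), by 0.36 ± 0.06 in line 2 (0.00122) and by 0.33 ± 0.06 in line 3 (0.0129) on the log2 scale. No pair of iPS lines passed, the differences lying between -0.04 and -0.01.

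Another bright probe set of Tbx3, 1437479_x_at, gave a different order. Its signals were 2451 and 2362 in iPS line 1, 2859 and 3287 in line 2, and 2455 and 2308 in line 3, against 3231 and 3183 in ES cells. Line 2 overlapped the ES arrays on this probe set, and lines 1 and 3 lay below both. With each probe set tested on its own, it fell by 0.41 ± 0.08 in line 1 (limma adjusted p = 0.0232) and by 0.43 ± 0.08 in line 3 (0.0134), and stood at -0.06 ± 0.08 in line 2 (0.63). The difference between line 2 and line 3 was 0.36 (limma adjusted p = 0.00434) and that between line 1 and line 2 was -0.35 (0.0085). The call of Tbx3 in line 2 therefore rested on the brighter probe set, 1448029_at. Averaging all probe sets of a gene lost the call in line 2 (-0.28, limma adjusted p = 0.114) and also that in line 1 (-0.47, 0.0766). An ending of _x_at marks a probe set that may also bind other transcripts. The dimmer probe sets 1445757_at and 1439567_at stood below 0 in all 3 lines and passed in none.

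Prdm14 had 1088 and 1050 signal units in iPS line 1, 945.8 and 1005 in line 2, and 889.9 and 900.8 in line 3, against 1206 and 1234 in ES cells. The 4 lines did not overlap, with ES cells highest, then line 1, line 2 and line 3. It fell by 0.32 ± 0.08 in line 2 (limma adjusted p = 0.0112) and by 0.44 ± 0.08 in line 3 (0.00947), and stood at -0.19 ± 0.08 in line 1 (0.319). Neighbours in this order did not pass, with 0.13 for line 1 over line 2 (95% interval -0.05 to 0.31) and 0.12 for line 2 over line 3 (-0.06 to 0.30). Line 1 over line 3, at 0.25, did not pass either (limma adjusted p = 0.172). The call in line 2 was lost without ES replicate 1 (adjusted p = 0.0515), ES replicate 2 (0.0736) or line 2 replicate 1 (0.0681), and that in line 3 without any 1 of the ES or line 3 arrays (0.0623 to 0.08641). Prdm14, like Nr0b1, had a single probe set on the array.

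Tfcp2l1 had 6096 and 5779 signal units in iPS line 1, 6694 and 6614 in line 2, and 5668 and 5542 in line 3, against 6730 and 6447 in ES cells. The arrays of line 2 lay within the ES range, and those of line 3 were the lowest of all. Line 3 fell by 0.23 ± 0.06 against ES cells (limma adjusted p = 0.0423), line 1 stood at -0.15 ± 0.06 (0.252) and line 2 at 0.01 ± 0.06 (95% interval -0.11 to 0.14). The fall in line 3 passed under 11 of 21 alternatives, and it was lost on leaving out ES replicate 1, ES replicate 2 or either array of line 1 or of line 3, with adjusted p of 0.0501 to 0.266. Setting each array to its own median, which moves every difference of line 3 from ES cells up by 0.05, gave -0.19 for it (adjusted p = 0.266).

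Esrrb had 3282 and 2830 signal units in iPS line 1, 3385 and 2886 in line 2, and 3295 and 3057 in line 3, against 3586 and 3725 in ES cells. All 6 iPS arrays were below both ES arrays, and the iPS lines overlapped one another. The differences were -0.26 ± 0.09 in line 1, -0.23 ± 0.09 in line 2 and -0.20 ± 0.09 in line 3, with limma adjusted p of 0.194, 0.0865 and 0.266. The 2 arrays of a line differed by up to 499.1 units. Without the first array of line 2 the differences passed in line 2 (-0.34, limma adjusted p = 0.0282) and in the mean of the lines (-0.27, 0.0352). With arrays centred on their medians the difference passed in line 2 (-0.31, limma adjusted p = 0.0394). The other probe sets of Esrrb did not run the same way: 1441921_x_at stood at 0.07, 0.18 and 0.30 in lines 1, 2 and 3, and 1422986_at at 0.10, -0.27 and -0.07, none past the test.

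Nr5a2 had 1707 and 1767 signal units in iPS line 1, 1747 and 1342 in line 2, and 1566 and 1590 in line 3, against 1623 and 1844 in ES cells. Lines 1 and 2 overlapped the ES arrays, and line 3 lay just below them. The differences were 0.01 in line 1 (95% interval -0.23 to 0.24), -0.17 in line 2 (-0.41 to 0.06) and -0.13 in line 3 (-0.37 to 0.11). Its probe set 1420410_at stood at 0.10, 0.14 and 0.17 in lines 1, 2 and 3 and 1449706_s_at between -0.15 and 0.00. The dim probe set 1449707_at, at 15.1 to 57.0 signal units over the arrays, stood at -0.72, -0.03 and -0.03 and passed in none. No order of the 4 lines was detectable for Nr5a2 from these arrays. Without the first array of line 2, that line was lower than ES cells by -0.36 (limma adjusted p = 0.022).

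**Figure D3:**
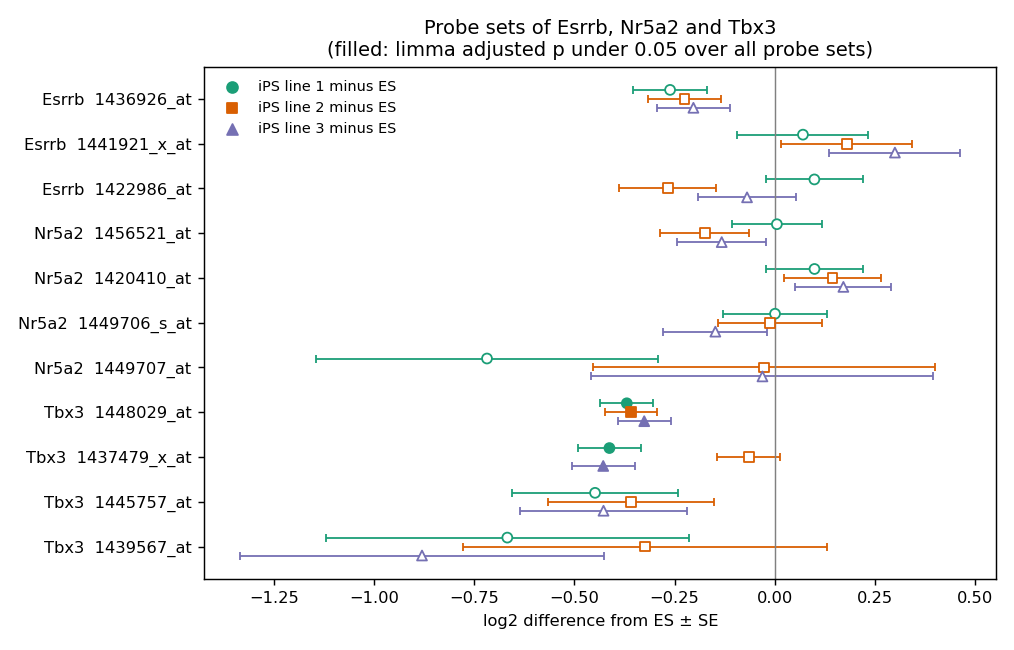
Log2 difference from ES cells (horizontal axis) for each probe set of Esrrb, Nr5a2 and Tbx3 over the floor, brightest first within a gene; bars are standard errors, and filled symbols passed at a limma adjusted p under 0.05 over all probe sets. The probe set 1437479_x_at of Tbx3 separates iPS line 2, at -0.06, from lines 1 and 3, at -0.41 and -0.43.

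By line, 2 of the 6 factors fell in iPS line 1, 3 in line 2 and 4 in line 3, and 0 rose in any. Over all genes, 1.12% were called lower and 1.21% higher in line 1 (2.34% in either direction), 10.6% and 16.1% in line 2 (26.7%), and 2.57% and 1.58% in line 3 (4.15%). At an unadjusted p, 5, 4 and 5 of the 6 were lower in lines 1, 2 and 3, where 6.37%, 14.4% and 9.68% of all genes were. None of the 6 was higher at that p, against 7.58%, 22.7% and 7.98% of all genes. Nr0b1 and Tbx3 were called in all 3 lines, Prdm14 in lines 2 and 3, and Tfcp2l1 in line 3. The 3 comparisons share the ES arrays. The summed signal of 7 neural markers was also unequal, at 989.8 to 1073 in line 1, 726.4 to 793.9 in line 2 and 1003 to 1036 in line 3, against 621.6 to 730.4 in ES cells, with Neurog2 under the floor in every array. Of the 5 tested, 2 rose in line 1 (Map2 and Tubb3), 1 in line 2 (Map2) and 2 in line 3 (Tubb3 and Pax6), and 0 fell. Sums of 10 primitive endoderm markers went the other way, at most 751.5 in line 1, 842.9 in line 2 and 740.4 in line 3, against 852.3 to 895.9 in ES cells. The 7 mesendoderm markers summed to at most 649.3 in line 1 and 653.4 in line 3, against 695.5 to 793.4 in ES cells. Line 2 overlapped ES cells there, at 692.7 to 822. Of 9 and 6 tested in these sets, limma called 0 in any line against ES cells. The part of neural or other differentiated cells in the falls of the factors was not tested. Fewer factors were called in lines 1 and 3 on leaving out any 1 array of the groups compared. That leaves a group of 1 array and less precision for every gene. The differences of the called factors kept their sign on leaving out each array. In line 1, Nr0b1 stood at -0.55 to -0.39 and Tbx3 at -0.39 to -0.34. In line 3, Nr0b1 stood at -0.49 to -0.43, Tbx3 at -0.35 to -0.30, Prdm14 at -0.46 to -0.425 and Tfcp2l1 at -0.26 to -0.20. In line 2, Nr0b1 stood at -1.46 to -1.225, Tbx3 at -0.41 to -0.30 and Prdm14 at -0.36 to -0.28.

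With each of the 14 probe sets tested on its own, 4 fell in the mean of the lines, 3 in each of lines 1 and 2 and 4 in line 3. None rose. Over all 25733 probe sets tested, 2.12%, 0.606%, 8.86% and 1.58% were called lower in these comparisons, and 4.83%, 1.35%, 21.3% and 2.45% in either direction. The probe sets called in the mean were those of Nr0b1 and Prdm14 and the 2 brightest of Tbx3. Probe sets of 1 gene share their target and are not separate evidence.

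Between iPS lines, 2 of the 6 factors differed in at least 1 pair. Line 1 exceeded line 2 in Nr0b1, by 0.87 ± 0.08 (limma adjusted p = 1.79e-05), and line 2 was below line 3 in it, by -0.88 ± 0.08 (6.61e-06). In Tfcp2l1, line 2 was above line 3 by 0.25 ± 0.06 (0.00561). These pairs called 23.3% of all genes for lines 1 and 2 and 31.2% for lines 2 and 3, so 1 and 2 calls among 6 factors are near the background. Between lines 1 and 3, limma called 0 of the 6 genes, in the main test and in every alternative run, where 1.39% of all genes were called in the main test. At an unadjusted p, 1 of the 6 was higher in line 1, Prdm14, as were 8.5% of all genes.

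Setting each array to its own median lowers every difference of line 2 from line 3 by 0.14. The difference in Tfcp2l1 was then 0.11 (adjusted p = 0.345), and that in Nr0b1 was still called. In the moderated F test over all 4 lines, 4 of the 6 factors varied, namely Nr0b1 (adjusted p = 1.48e-06 in limma), Tbx3 (0.00173), Prdm14 (0.00588) and Tfcp2l1 (0.012). That test called 30.7% of all genes.

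The genes whose profile over the 8 arrays was most like that of Nr0b1 were She, Mcts2 and Robo4. The measure was the root-mean-square difference after each gene's own mean was taken off, at 0.07, 0.10 and 0.10 log2 units. The arrays share the same RNA samples, and the likeness is a description. Mcts2, an imprinted retrogene, had 1609 and 1600.3 signal units in line 2 against 3686 and 3781 in ES cells, and She, an adaptor protein gene, had 151.2 and 141.5 against 379.998 and 361.8. Robo4, a guidance receptor of endothelium, was dim, at 35.2 and 24.9 in line 2 and 94.3 and 98.8 in ES cells. No other factor spanned 0.5 log2 units between its line means, so none was compared in this way.

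**Figure D4:**
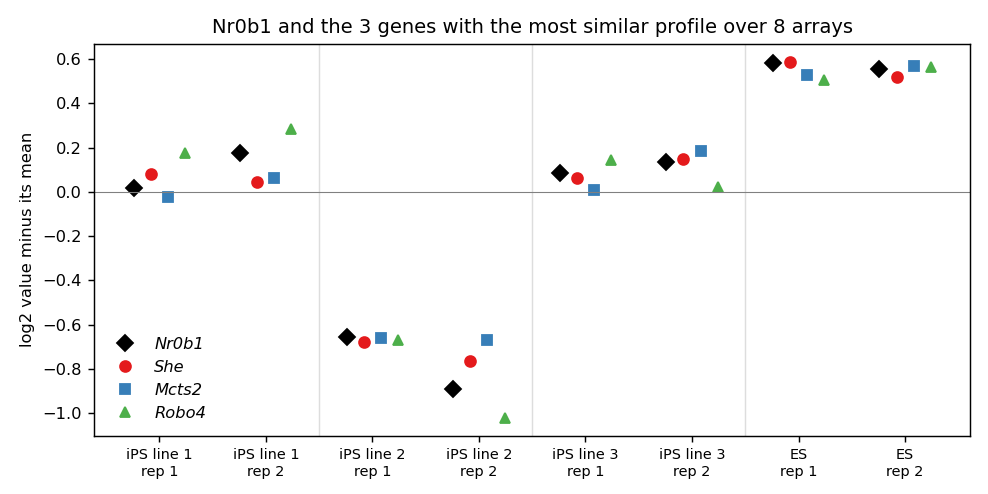
Log2 value of Nr0b1, She, Mcts2 and Robo4 in each array, minus the gene's mean over the 8 arrays (vertical axis). All 4 genes are lowest in iPS line 2 and highest in ES cells.

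None of the genes next to Nr0b1 on the X chromosome was called lower. Of its 6 nearest measured neighbours, limma called 0 in the mean of the lines and 1 in line 2, against 7.3% and 26.7% of all genes. At an unadjusted p, 2 of the 6 were higher in the mean, against 12.6% of all genes. The gene called in line 2 was Pdk3, a pyruvate dehydrogenase kinase gene, which rose by 0.59 ± 0.08 (limma adjusted p = 0.000201). Their differences in line 2 ranged from -0.06 to 0.59, and the adjacent Tab3 stood at -0.06 and Pola1 at -0.02. Beside Esrrb on chromosome 12, Irf2bpl fell in the mean (-0.59 ± 0.06, limma adjusted p = 4.71e-05), and it was the only one of 6 neighbours of Esrrb to pass there. Beside Tfcp2l1 on chromosome 1, Inhbb, which encodes an activin subunit, fell (-0.42 ± 0.10, limma adjusted p = 0.027). The neighbours of Nr5a2, Prdm14 and Tbx3 held 0 calls in the mean of the lines. At an unadjusted p, 2, 2 and 1 of their 6 differed, where 12.6% of all genes were higher and 8.92% lower.

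Of 23 other measured genes of the naive network, 7 fell, 1 rose and 15 did not pass in the mean of the lines, with a median of -0.13 against 0.02 over all genes and 7.3% of all genes called. Dppa2, a chromatin factor of early embryos, was among those that fell (-0.56 ± 0.05, limma adjusted p = 2.34e-05), at 4594 and 4876 signal units in iPS line 2 against 12162 and 12612 in ES cells. So were Jam2 (-0.42 ± 0.06, 0.00137) and Ooep (-0.35 ± 0.05, 0.0021). Dppa3, a maternal factor that guards DNA methylation in the early embryo, rose (0.92 ± 0.09, 5.9e-05) and was above ES cells in all 6 iPS arrays. By line, 3 fell and 1 rose in line 1, 11 fell and 3 rose in line 2, and 2 fell and 2 rose in line 3, where 2.34%, 26.7% and 4.15% of all genes were called. Without line 2, where 3.51% of all genes were called, 3 fell and 2 rose, and the call of Dppa2 was lost (-0.14).

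Among 25 measured genes of the LIF, BMP and Wnt inputs, 3 rose and 0 fell in the mean of the lines (median 0.03). Over all genes, 4.27% were called higher and 3.03% lower there. At an unadjusted p, 7 of the 25 were higher and 2 lower, against 12.6% and 8.92% of all genes. Lef1, a Wnt effector, rose (1.47 ± 0.13, limma adjusted p = 2.49e-05), as did the Wnt target Sp5 (0.76 ± 0.10, 0.000805) and the BMP target Id2 (0.46 ± 0.08, 0.0041). In line 2 Id2 was 1.27 above ES cells, against -0.12 in line 3, and leaving line 2 out ended its call (0.06). Axin2, also a Wnt target, was at 0.49 ± 0.14 (0.0614). In line 2, 6 of the 25 rose and 3 fell, where 26.7% of all genes were called. Tcf7l1, the repressor of Esrrb, Nr0b1 and Tfcp2l1 in ES cells, fell there by 0.70 ± 0.13 (limma adjusted p = 0.00131). Tcf7l2 (-0.42 ± 0.13, 0.0324) and Socs3 (-0.27 ± 0.08, 0.0347) fell as well. Stat3 was among those that rose (0.35 ± 0.09, 0.01).

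Prdm14 is known to restrain FGF receptor and de novo DNA methyltransferase genes. In a list of 14 measured genes that holds these, other methyltransferase and ERK feedback genes and the corepressors Cbfa2t2 and Cbfa2t3, 2 rose and 2 fell in the mean of the lines (median -0.01), where 7.3% of all genes were called. The de novo methyltransferase gene Dnmt3b had 8844 and 8537 signal units in iPS line 1, 5492 and 6274 in line 2, and 11417 and 12648 in line 3, against 6536 and 6833 in ES cells. It rose by 0.38 in line 1 (limma adjusted p = 0.0172) and by 0.85 in line 3 (0.000112), and stood at -0.19 in line 2 (0.0798). Dnmt3l, its cofactor, fell by 1.25 ± 0.07 in line 2 (1.8e-07) and rose by 0.29 in line 3 (0.0376), so its mean of -0.39 averaged opposite changes. Cbfa2t2, the corepressor partner of Prdm14, rose (0.24 ± 0.06, 0.0302), and Dusp6, an ERK feedback gene, fell (-0.35 ± 0.06, 0.00293). Without line 2 the calls of Dnmt3l, Dusp6 and Cbfa2t2 were lost, leaving 1 that rose and 0 that fell, where 3.51% of all genes were called.

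Of 21 measured regulators of exit from the naive state, 2 rose and 4 fell in the mean of the lines (median -0.01), where 7.3% of all genes were called. Dnmt3b, counted here too, and Sox4 (0.37 ± 0.06, limma adjusted p = 0.00324) rose, while Rbpj, the DNA-binding protein of Notch signalling (-0.38 ± 0.05, 0.000498), Foxd3 (-0.63 ± 0.10, 0.00209), Etv4 (-0.71 ± 0.12, 0.00347) and Utf1 (-0.43 ± 0.12, 0.0479) fell. Etv4, an ERK-responsive factor, stood at -1.82 in line 2, with 159 and 157 signal units against 576 and 605.4 in ES cells, and at 0.07 in line 3. Without line 2, where 3.51% of all genes were called, 1 rose and 2 fell, and the calls of Etv4 (-0.15), Utf1 (-0.21) and Sox4 (0.25) were lost.

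**Figure D5:**
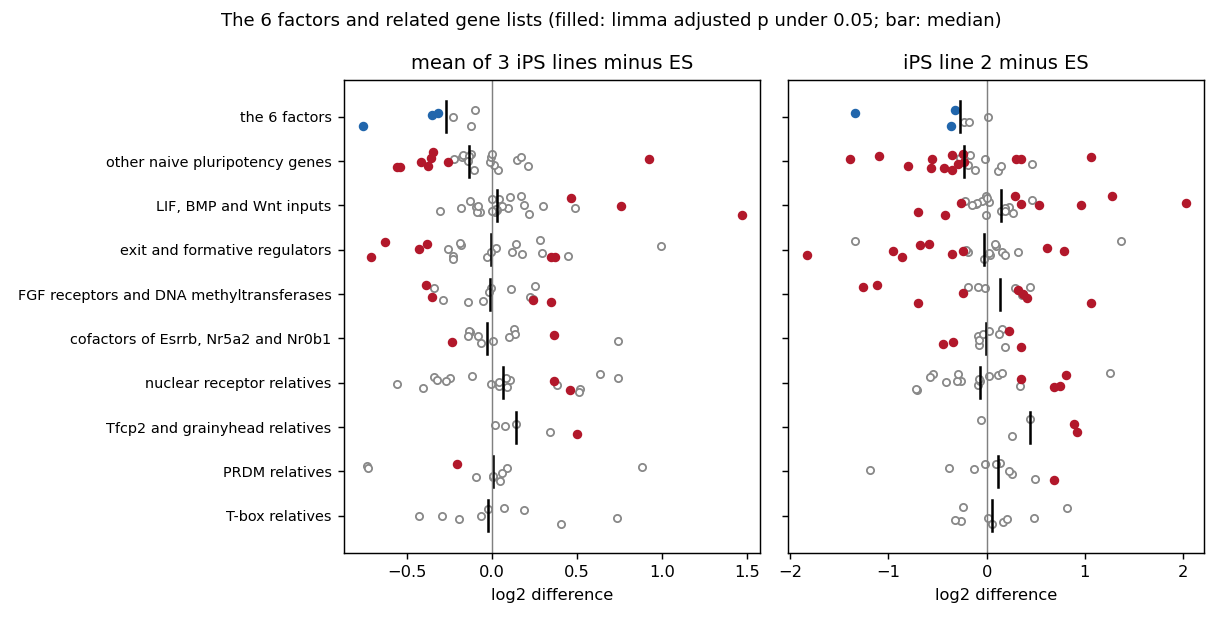
Log2 difference (horizontal axis) of the 6 factors and of each gene in 9 related lists, for the mean of the 3 iPS lines minus ES cells (left) and iPS line 2 minus ES cells (right); points are genes, filled where limma gave an adjusted p under 0.05, and bars are medians. The median of the 6 factors is -0.27 in both panels.

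A list of 12 measured genes held cofactors of Esrrb, Nr5a2 and Nr0b1 and also the receptor gene Nr6a1. Of these, 1 rose and 1 fell in the mean of the lines, where 7.3% of all genes were called. In line 2, 2 rose and 2 fell, where 26.7% were called. In the mean, Nr6a1, a receptor that represses Pou5f1 during differentiation, rose (0.37 ± 0.06, limma adjusted p = 0.00343), and Ncoa3, a coactivator that Esrrb uses in ES cells, fell (-0.23 ± 0.06, 0.0349). Ncoa3 lost its call without line 2 (-0.13). Of 20 measured nuclear receptor relatives, 2 rose and 0 fell in the mean, against 4.27% and 3.03% of all genes. At an unadjusted p, 4 rose and 0 fell, against 12.6% and 8.92%. The 2 called were Nr6a1 again and Esrra, the close relative of Esrrb (0.46 ± 0.12, limma adjusted p = 0.039). Esrra had 540.8 and 420.7 signal units in line 2 against 254 and 282 in ES cells, and its call was lost without that line (0.29). In line 2 the orphan receptor genes Nr2c1 (0.69 ± 0.17, limma adjusted p = 0.00966) and Nr2f6 (0.75 ± 0.24, 0.0337) rose as well, making 4 of 20, where 16.1% of all genes were called higher.

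In the family of Tfcp2l1, 1 of 5 relatives passed in the mean of the lines and 2 in line 2, against 7.3% and 26.7% of all genes. The one in the mean was Grhl1 (0.50 ± 0.13, limma adjusted p = 0.0394). Its call was lost without line 2 at a difference no smaller (0.53, limma adjusted p = 0.0775). Tfcp2, the nearest relative, rose by 0.92 ± 0.20 in line 2 (0.00434), as did Grhl3 (0.89 ± 0.19, 0.00357), and Grhl2 rose in line 3 (0.66, 0.0377). Of 10 measured PRDM relatives, Prdm2 fell (-0.21 ± 0.06, 0.0427) and 0 rose in the mean, and Prdm1, a repressor that acts with Prdm14 in germ cells, rose in line 2 (0.69 ± 0.20, 0.0217). Of 9 measured T-box relatives, limma called 0 in the mean or in any line against ES cells, also at an unadjusted p. At that p, 12.6% of all genes were higher and 8.92% lower in the mean. The medians of these families were 0.14, 0.01 and -0.02 for the mean of the lines.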

How the data were processed

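RNA of 8 samples was biotin-labelled and hybridised to Affymetrix 3′ expression arrays. The deposited table holds 1 linear intensity per probe set and array, produced by MAS5 per the submitters' processing notes, and the trimmed mean of every array is 500.0. No version or detection call was used here. The number of arrays limits the precision. The platform annotation names 1 gene for 34945 probe sets, which were used, several genes for 932, and no gene for 9160, besides 64 control probe sets. A pseudocount of 12, the 20th percentile of all signals, was added before log2, so fold changes of dim genes are understated. The filter on low signals stands in for detection calls. The means of the 4 lines were fitted over all 8 arrays with limma 3.58.1 in R 4.3.3, with an intensity trend and 4 residual degrees of freedom. Tests were two-sided with Benjamini-Hochberg adjustment across the 14004 genes, and changes are those with an adjusted p below 0.05. The procedure was tested on simulated data.

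The 6 members and the gene lists were chosen with earlier results of these data known. From each list, up to 4 genes with the smallest adjusted p for the mean of the lines were named, and from family lists also relatives called in any line. Tcf7l1, Tcf7l2, Socs3, Stat3, Utf1, Pou5f1, Dppa5a, the neighbours singled out and the motif windows printed were picked with their values seen. Stat3, Dnmt3a, Dnmt3b and Nr6a1 are in more than 1 list. Neighbours are the 3 nearest measured genes on each side, in RefSeq order. Alternatives covered scaling, pseudocount, filter, probe set rule, variance trend, replicate block, the samples in the fit and leaving out each array.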

Additional observations from a re-analysis of the deposited data

Results flagged for a closer look

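For Nr0b1 and Tfcp2l1 the main test between iPS lines called a difference, in pairs where many other genes were called too. For Nr0b1 the log2 difference was 0.87 for line 1 against line 2 (limma adjusted p = 1.79e-05) and -0.88 for line 2 against line 3 (6.61e-06). For Tfcp2l1 it was 0.25 for line 2 against line 3 (limma adjusted p = 0.00561). Of all genes, 23.3% were called between lines 1 and 2 and 31.2% between lines 2 and 3. The difference in Tfcp2l1 was not called with arrays centred on their medians (0.11, limma adjusted p = 0.345). It was not called without the intensity trend of the variance either (0.25, limma adjusted p = 0.0657).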

How the results depend on the processing

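Counted over every pair of a called difference of a member and an alternative, 265 stayed called, 44 were lost and 0 changed sign. Nr0b1 kept its call in the mean of the lines in 21 of 21 alternatives, at -0.80 to -0.47. Without the intensity trend of the variance, 1 factor was called in the mean of the lines, 0 in line 1, 0 in line 3, 1 between lines 2 and 3, and 2 among the 4 lines, while the share of all genes called in the mean fell to 2.06%, against 7.3% in the main test. That share was 0.336% in line 1, 0.157% in line 3 and 21.9% between lines 2 and 3. Centring arrays on their medians left 2 calls in line 3 and 1 between lines 2 and 3, where 3.07% and 28.6% of all genes were called. It added Esrrb in line 2 (-0.31, limma adjusted p = 0.0394), where 24.2% were. Averaging all probe sets of a gene left 1 call in line 1, where 1.52% of all genes were called. Quantile normalization gave 2 calls between lines 1 and 2, as did the filter at the 60th percentile, with 22.3% and 34.5% of all genes called. Leaving out 1 array at a time changed the calls in the mean of the lines, in each line against ES cells, among the 4 lines and between lines 1 and 2. Precision was then lower for every gene. On leaving out line 2 replicate 1, Nr5a2 stood 0.37 higher in line 1 than in line 2.

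The sign turned only for differences that were not called. Under quantile normalization these were Nr5a2 in line 1 (-0.004504), Nr0b1 for line 1 against 3 (0.0092), and for line 2 against 3 Esrrb (0.038) and Tbx3 (0.052). With arrays centred they were Tfcp2l1 in line 2 (-0.074), Esrrb (0.088) and Tbx3 (0.11) for line 1 against 2, and Prdm14 for line 2 against 3 (-0.014). With all probe sets averaged they were Nr5a2 (-0.15) in line 1, Esrrb (0.0094) in line 3, Esrrb (0.073) and Nr5a2 (-0.14) for line 1 against 2, Nr5a2 (-0.12) and Tbx3 (0.041) for line 1 against 3, and Nr5a2 (0.018) and Tbx3 (0.24) for line 2 against 3. The average for Nr5a2 includes 1449707_at, which was near the floor and stood at -0.72 ± 0.43 in line 1. The cause of these turns of sign was not tested. Leaving out 1 array at a time, with a lone array assumed to vary like the others, gave ranges across 0 for Nr5a2 in line 1 (-0.086 to 0.097) and line 2 (-0.36 to 0.014), Tfcp2l1 in line 2 (-0.0164 to 0.0456), Esrrb (-0.15 to 0.079), Nr5a2 (-0.0086 to 0.37) and Tbx3 (-0.065 to 0.044) for line 1 against 2, Esrrb (-0.16 to 0.048) and Nr0b1 (-0.092 to 0.065) for line 1 against 3, and Esrrb (-0.14 to 0.092), Nr5a2 (-0.23 to 0.15) and Tbx3 (-0.088 to 0.021) for line 2 against 3.

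Replicate numbers did not pair the arrays: deviations of same-numbered arrays correlated at -0.0111 to 0.0298 between lines. With the replicate number as a block, 4 factors were called in the mean of the lines, 2 in line 1, 4 in line 2 and 4 in line 3, Esrrb being added in the mean (-0.23, limma adjusted p = 0.0462) and in line 2 (-0.23, 0.04751). With 2 arrays a line, a difference that was not called is bounded only by its interval.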
